A study of Mus musculus with 12 samples.

Results

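Interferon-stimulated genes are the genes that cells switch on when interferon reaches them, and 43 of them were followed here in mouse regulatory T cells (Treg). Members were taken by gene name: every non-control array probe carrying a listed name was kept if the scanner software marked it as well above background on each of the 3 arrays in 1 or more groups. That rule kept 61 of 62 probes and all 43 genes, out of 18549 genes tested in the whole series. The probe left out, a second probe of Sp100, was well above background on at most 2 of 3 arrays of any group, whereas the only probe of Ifi44, a member that was kept, passed on all 3 arrays of both 0 h groups and on none at 3 h. The study measured RNA of sorted splenic Treg on 12 one-colour microarrays in 4 groups of 3: CD83cKO Treg activated for 3 h with anti-CD3 and anti-CD28 (KO 3 h), WT Treg activated in the same way (WT 3 h), and non-activated CD83cKO (KO 0 h) and WT (WT 0 h) Treg. All mice were C57BL/6 females. WT mice were 9 weeks old and KO mice 10 weeks old, except replicate 3 of KO 3 h and replicate 3 of KO 0 h, which came from 21-week mice. CD83cKO is a conditional deletion of Cd83, and the sources used here do not name the Cre driver. The design speaks of 6 mice for 12 samples, so some samples share a mouse. The labels tie none of them directly, although the 2 KO samples of 21 weeks share their age, and p-values measure the spread between these samples.

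Type I interferons signal through the receptor Ifnar1 with Ifnar2, and lead to a complex holding Stat2 and Irf9 that binds the interferon-stimulated response element (ISRE). Interferon gamma signals through Ifngr1 with Ifngr2 and acts on genes through the gamma-activated site (GAS). The genes switched on code for sensors of foreign nucleic acid, for proteins that block viral replication, for GTPases that attack the compartments of intracellular microbes, and for feedback regulators, and many are also transcribed at a low level in resting lymphocytes.

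Promoter sequence is shown for 4 members because the 2 response elements are what ties such genes to interferon. The windows come from RefSeq (GRCm38.p6), run from 250 bases before to 50 bases after each annotated start, and were found for 32 of the 43 members by symbol. The ISRE was searched as GAAA, any 2 bases and GAAA again, or TTTC, any 2 bases and TTTC for the other strand, and the GAS as TTCNNNGAA, which reads the same on both strands. The 250 bases before the start are printed 5′ to 3′ on the strand of the gene, with each match in capitals. Ifit3 (chr19:34583279-34583528, plus strand) held 2 ISRE matches and fell at 3 h in both genotypes. Isg15 (chr4:156200819-156201068, minus strand) held 3 overlapping ISRE matches and did not pass the test in any comparison. Igtp (chr11:58199306-58199555, plus strand), a GTPase gene, held a GAS match beside an ISRE match. Irf1 (chr11:53769764-53770013, plus strand) held a GAS match and no ISRE match, and was called higher at 3 h in KO, not in WT.
Ifit3: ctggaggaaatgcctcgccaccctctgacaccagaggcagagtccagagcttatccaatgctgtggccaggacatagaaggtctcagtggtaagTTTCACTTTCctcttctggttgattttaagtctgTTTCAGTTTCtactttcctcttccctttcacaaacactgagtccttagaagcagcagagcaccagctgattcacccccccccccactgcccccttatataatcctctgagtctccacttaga
Isg15: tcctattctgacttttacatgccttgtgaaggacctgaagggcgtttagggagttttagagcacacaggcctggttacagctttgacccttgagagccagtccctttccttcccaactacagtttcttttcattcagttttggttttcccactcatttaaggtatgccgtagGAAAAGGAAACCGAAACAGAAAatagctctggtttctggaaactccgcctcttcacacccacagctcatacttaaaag
Igtp: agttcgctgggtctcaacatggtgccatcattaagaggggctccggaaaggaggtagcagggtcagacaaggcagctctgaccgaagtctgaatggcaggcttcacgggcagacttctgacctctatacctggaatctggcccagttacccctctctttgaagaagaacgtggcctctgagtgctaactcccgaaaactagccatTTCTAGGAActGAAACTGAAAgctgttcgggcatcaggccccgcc
Irf1: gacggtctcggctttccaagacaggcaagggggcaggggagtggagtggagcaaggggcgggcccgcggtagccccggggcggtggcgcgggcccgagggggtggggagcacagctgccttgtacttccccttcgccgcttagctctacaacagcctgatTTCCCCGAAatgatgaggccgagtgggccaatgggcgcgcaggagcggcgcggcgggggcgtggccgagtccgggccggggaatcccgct

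At least 1 ISRE match was found in 16 of the 32 members (50%), against 3.99% of 27025 symbols with such windows, and a GAS match in 10 of 32 (31.2%), against 9.55% of symbols. By role, ISRE matches were found in 4 of 4 GTPases, 2 of 2 sensors, 9 of 16 antiviral effectors, 1 of 4 transcription factors and feedback genes, and 0 of 6 of the remaining members. Members that fell at 3 h in WT Treg held an ISRE match in 8 of 15 cases (53.3%), and members not called there in 8 of 17 (47.1%). A match is a description of the letters and not of a bound site. Several members are neighbours in the genome. On the array's mm9 coordinates the probes of Ifit2 (chr19:34650244-34650303), Ifit3 (chr19:34663105-34663164) and Ifit1 (chr19:34723796-34723855) lie together, as do those of Oas2, Oas3 and Oas1a on chromosome 5, of Rsad2 (chr12:27127859-27127918) and Cmpk2 (chr12:27162935-27162994), of Parp14, Dtx3l and Parp9 on chromosome 16, and of Mx1 and Mx2 on chromosome 16.

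Levels below are log2 signals relative to the 75th percentile signal of the same array, so 0 is the level of that percentile, and levels of different probes are not set against each other. Values are given in replicate order, so the last KO value at either time is from a 21-week mouse. Cd83 itself read 1.06, 1.07 and 1.92 in KO 3 h, against 4.21, 3.69 and 3.65 in WT 3 h, and 0.75, 0.30 and 0.24 in KO 0 h, against 2.36, 2.17 and 2.39 in WT 0 h (differences of -2.50 and -1.88, limma adjusted p = 0.00229 and 0.0089). All 6 KO samples lay on 1 slide and each WT group on a slide of its own (3 slides in all). The slide cannot be told apart from genotype, or from time within WT, while the KO comparison of 3 h with 0 h lies within 1 slide. RNA input was 20 ng for a sample named only as sample 1 at 0 h and 40 ng for the others.

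The arrays differed in markers of cell type, and the 21-week arrays stood apart. The summed signal of 8 Treg markers, on a linear scale, was 70.1, 63.2 and 4.64 in KO 3 h, against 70.6 to 76.5 in WT 3 h, and 23.7, 23.2 and 2.87 in KO 0 h, against 32.5 to 37.1 in WT 0 h. Both 21-week arrays were the low ones. Foxp3, the factor that defines Treg, was well above background on all 6 KO arrays and on none of the 6 WT arrays. These WT samples were also sorted as Treg, and whether the single Foxp3 probe of the array reports the transcript was not tested, so no difference in Foxp3 is drawn from it. The other 7 Treg markers were above background on all 12 arrays. For 7 plasma cell markers the sum was 276 and 193 on the 21-week arrays at 3 h and 0 h, and 5.51 to 22.8 on the other 10. For 11 macrophage markers, all above background on every array, it ranged from 8.46 to 14.3 in KO 3 h and 1.37 to 2.14 in WT 3 h, and from 28.9 to 43.9 in KO 0 h and 5.65 to 10.3 in WT 0 h. In a sorted bulk sample, fewer cells of a type and less RNA per cell cannot be told apart.

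Activation for 3 h was accompanied by lower levels of many interferon-stimulated genes in both genotypes. No group was held for 3 h without stimulation, so the stimulus cannot be told apart from the 3 h themselves. The activation effect below is the difference of 3 h against 0 h. In KO Treg 13 of 43 members fell and 1, Irf1, rose (limma, Benjamini-Hochberg adjusted p under 0.05 over 18549 genes), which is 32.6% of members against 17.2% of all genes called (9.85% lower and 7.36% higher). Over all genes that split was 1365 higher and 1827 lower, and it depended on the scaling, with 268 and 2194 without a shift between arrays and 1633 and 1381 with normexp background correction. In WT Treg 22 of 43 fell and 0 rose (51.2%, against 29.9% of all genes called, 16.6% lower and 13.3% higher). By limma, 29 members (67.4%, against 41.3% of all genes) had an unadjusted p under 0.05 in WT, and 24 (55.8%, against 32.3%) in KO. The median difference of the 43 members was -0.77 in KO and -1.63 in WT on the log2 scale, against -0.04 and -0.14 over all genes tested. All 13 members that fell in KO also fell in WT, which is 100% of the KO list and 59.1% of the WT list. Over all genes, 1581 of the 1827 lower in KO were also lower in WT, which is 86.5% of the KO list and 51.3% of the WT list. The comparisons share no array, but they share the estimate of spread. Standard errors of a member's difference ran from 0.169 to 0.894 with a median of 0.414, so a difference near 1 on the log2 scale could be called for some members and not for others. The fit pooled the spread over the 4 groups, so each member had the same standard error in KO and in WT. The median SD of a member was larger in KO (0.57 at 3 h and 0.75 at 0 h) than in WT (0.15 and 0.12). Standard errors are thus likely too small for KO and too large for WT.

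**Figure D1:**
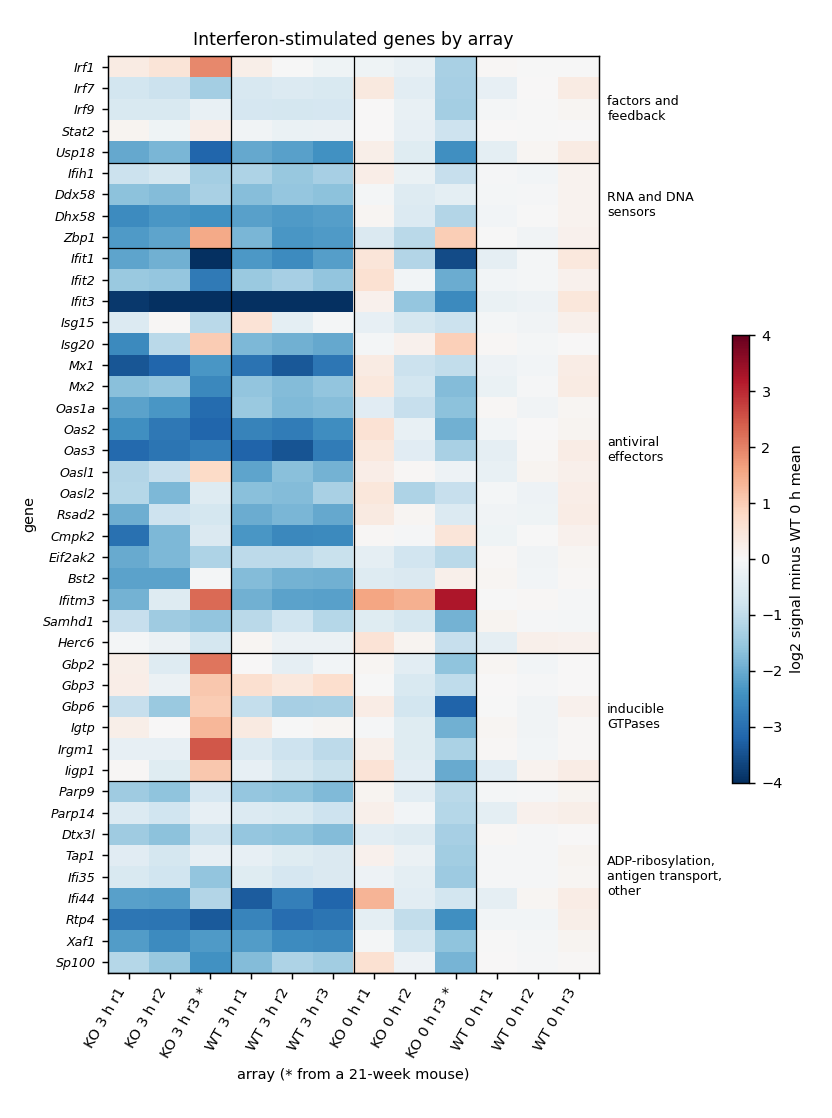
Heat map of the 43 members (rows, grouped by role) on the 12 arrays (columns), coloured by log2 signal minus the member's mean in WT 0 h, with colours saturated beyond the ends of the scale. Blue runs through most sensors and antiviral effectors in KO 3 h and WT 3 h, and the 21-week arrays (asterisks) differ from the other KO arrays, with the GTPases blue at 0 h and red at 3 h.

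The summed level of macrophage markers was also lower at 3 h in both genotypes. Of 11 macrophage markers 7 fell in KO Treg at 3 h and 8 in WT Treg. Over all genes, 9.85% were called lower in KO and 16.6% in WT. Of 7 dendritic cell markers 4 fell and 1 rose in each genotype. Of 6 plasmacytoid dendritic cell markers 1 fell in KO (16.7%) and 2 in WT (33.3%), too few to set against the shares over all genes. Bst2, itself a member and called lower in WT, is 1 of those 6 markers. Their summed level ranged from 17.6 to 23.7 in KO 3 h and 17.2 to 22.8 in KO 0 h, and from 18.1 to 21.7 in WT 3 h and 22.8 to 26.8 in WT 0 h. Of NK cell markers 3 of 6 fell in KO and 4 of 6 in WT, with summed levels of 1.32 to 4.49 in KO 3 h and 6.35 to 14.9 in KO 0 h, and 1.01 to 1.2 in WT 3 h and 3.66 to 4.32 in WT 0 h. Of B cell markers 2 of 7 fell in each genotype. The summed level of 7 dendritic cell markers ranged from 0.241 to 0.679 in KO 3 h and 0.622 to 1.61 in KO 0 h, and from 0.0904 to 0.109 in WT 3 h and 0.118 to 0.193 in WT 0 h. Those sums include signal at background. Above background were 3, 4 and 6 of these markers in KO 3 h, 3, 4 and 4 in WT 3 h, and 5 on each WT 0 h array. Of the plasma cell markers 0 of 7 were called lower in either genotype. The part of these cell types in the levels of interferon-stimulated genes was not tested.

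Both 21-week arrays also changed the counts. Without them, 33 of 43 members fell and 1 rose in KO (46.2% of all genes were called, 26% lower and 20.2% higher), and 34 fell and 1, Gbp3, rose in WT (55.8% of all genes, 31.6% lower and 24.2% higher), where the WT arrays and differences were the same but standard errors were smaller (0.181 for Gbp3, against 0.325 with all arrays). The median difference in KO was then -1.36, against -1.63 in WT. Of the single arrays, leaving out replicate 2 of KO 0 h left 8 members called in KO (1803 of 18549 genes). Leaving out replicate 3 of KO 0 h gave 23 (3712 of 18549 genes). A fit of the KO arrays alone, with the same differences, called 0 members (105 of all genes), and 12 with age as a covariate (2547 of all genes), an alternative chosen after seeing the data.

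**Figure D2:**
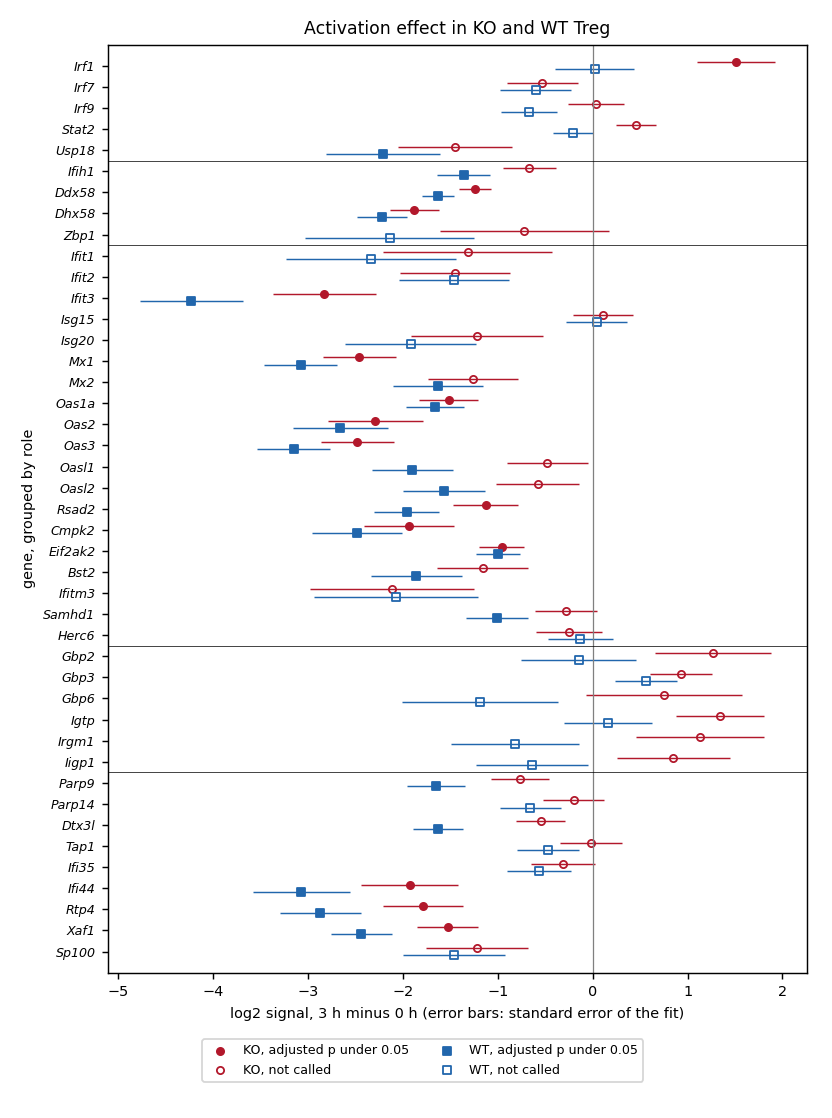
Difference in log2 signal, 3 h minus 0 h, for each member (rows, grouped by role) in KO (red circles) and WT (blue squares) Treg, with the standard error of the fit as bars and filled symbols for an adjusted p under 0.05. Most points lie left of 0 in both genotypes, down to -4.23 for Ifit3 in WT, while KO points of the GTPases lie right of 0 with open symbols. The points of Ifi44, below background at 3 h, are fitted values and not bounds.

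Of the 4 sensors of foreign nucleic acid, 2 fell in KO and 3 in WT, with median differences of -0.98 and -1.89. Ddx58, which codes for the RNA sensor RIG-I, read -0.71, -0.80 and -0.37 in KO 3 h, against 0.87, 0.43 and 0.54 in KO 0 h. In WT it read -0.76, -0.61 and -0.71 at 3 h, against 0.86, 0.88 and 1.07 at 0 h. The time points did not overlap in either genotype, and the level was 2.36-fold lower at 3 h in KO (log2 difference -1.24 ± 0.169 SE, adjusted p = 0.00188) and 3.1-fold lower in WT (-1.63 ± 0.169, adjusted p = 0.000265). Dhx58, which codes for LGP2, a regulator of RNA sensing, read -4.36, -4.18 and -4.26 in KO 3 h, against -1.77, -2.38 and -3.02 in KO 0 h. The WT arrays read -4.03, -4.12 and -4.06 at 3 h, against -1.96, -1.87 and -1.71 at 0 h. All 6 activated arrays lay below all 6 non-activated ones, with differences of -1.88 in KO (adjusted p = 0.00198) and -2.22 in WT (adjusted p = 0.000429). Ifih1, which codes for the RNA sensor MDA5, fell in WT (-1.36, adjusted p = 0.00582), and its difference in KO was -0.67 (adjusted p = 0.13). Zbp1, a sensor of Z-form nucleic acid, had -0.72 in KO and -2.14 in WT with adjusted p-values of 0.628 and 0.0966. Its second, dimmer probe had -1.56 in KO (adjusted p = 0.0594) and fell by 2.87 in WT (adjusted p = 0.00282). On the brightest probe the 21-week KO array at 3 h read 1.48, against -2.32 and -2.15 on the 10-week arrays.

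Antiviral effectors held most of the members that fell, 8 of 19 in KO and 13 of 19 in WT, with median differences of -1.26 and -1.90. Ifit3, a member of the family that binds viral RNA and restrains its translation, read -4.88, -5.32 and -5.30 in KO 3 h, against -0.87, -2.56 and -3.57 in KO 0 h. WT Treg had levels of -5.10, -5.43 and -5.25 at 3 h, against -1.29, -1.22 and -0.57 at 0 h. At 3 h the genotypes overlapped, while at 0 h 2 of 3 KO arrays lay below all WT arrays. Ifit3 was 7.12-fold lower at 3 h in KO (-2.83 ± 0.543 SE, adjusted p = 0.00758) and 18.8-fold lower in WT (-4.23 ± 0.543, adjusted p = 0.000614). Its neighbours Ifit1 and Ifit2 did not pass the test: their differences were -1.32 and -1.45 in KO and -2.34 and -1.46 in WT. In WT the 3 h and 0 h arrays of both did not overlap, as was the case for 36 of 43 members in this direction, against 39.5% of all genes.

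Mx1, a gene of the dynamin-like GTPase family, read -4.95, -4.69 and -3.85 in KO 3 h, against -1.21, -2.39 and -2.52 in KO 0 h. Its WT levels were -4.49, -4.92 and -4.43 at 3 h, against -1.74, -1.63 and -1.22 at 0 h. Every activated array lay below every non-activated one, and Mx1 was 5.49-fold lower in KO (-2.46, adjusted p = 0.00315) and 8.48-fold lower in WT (-3.08, adjusted p = 0.00053). Its neighbour Mx2 fell in WT (-1.63, adjusted p = 0.0263, a call kept in 14 of 24 alternatives), and the difference in KO was -1.26 (adjusted p = 0.0957).

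The oligoadenylate synthetases make the messenger that activates RNase L. Oas3 read -5.52, -5.34 and -5.16 in KO 3 h, against -1.99, -2.87 and -3.72 in KO 0 h. In WT it read -5.60, -5.85 and -5.21 at 3 h, against -2.78, -2.35 and -2.10 at 0 h. It was 5.57-fold lower at 3 h in KO (adjusted p = 0.00313) and 8.85-fold lower in WT (adjusted p = 0.000501), without overlap of the time points. Oas1a read 0.19, 0.00 and -0.73 in KO 3 h, against 1.88, 1.42 and 0.71 in KO 0 h. The WT arrays read 0.85, 0.56 and 0.62 at 3 h, against 2.38, 2.20 and 2.43 at 0 h. The KO arrays lay below the WT arrays at both times for this gene, and it fell by 1.52 in KO (adjusted p = 0.00956) and by 1.66 in WT (adjusted p = 0.00357). Oas2 fell in both genotypes as well (-2.29 in KO and -2.66 in WT, adjusted p = 0.0134 and 0.00387). The related genes Oasl1 and Oasl2 fell in WT (-1.90 and -1.57, adjusted p = 0.00876 and 0.0223), and had differences of -0.48 and -0.58 in KO.

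Rsad2, which codes for viperin, read -4.72, -3.60 and -3.45 in KO 3 h, against -2.41, -2.67 and -3.31 in KO 0 h. WT Treg had levels of -4.75, -4.59 and -4.79 at 3 h, against -2.90, -2.92 and -2.45 at 0 h. The time points did not overlap in either genotype, with differences of -1.13 in KO (adjusted p = 0.0471) and -1.96 in WT (adjusted p = 0.00268). The KO call was kept in 11 of 26 alternatives (adjusted p of 0.00529 to 0.252) and the WT call in 24 of 24. Its neighbour Cmpk2, a mitochondrial nucleotide kinase, fell by 1.94 in KO (adjusted p = 0.021) and by 2.48 in WT (adjusted p = 0.00414). Eif2ak2, the double-stranded RNA kinase PKR, fell by 0.96 in KO (adjusted p = 0.0218) and by 1.00 in WT (adjusted p = 0.011). Bst2, the virion tether tetherin, fell in WT (-1.86, adjusted p = 0.0158), with -1.16 in KO (adjusted p = 0.124). Samhd1, which degrades deoxynucleotides, was called lower in WT on its brightest probe (-1.01, adjusted p = 0.0438), but another of its probes rose by 2.44 in KO (adjusted p = 0.000321) and by 2.12 in WT (adjusted p = 0.000303), and the difference of the mean over its probes was 0.33 in WT (adjusted p = 0.414). Isg15, a ubiquitin-like modifier, had differences of 0.11 in KO and 0.04 in WT, with 95% intervals of -0.60 to 0.82 and -0.68 to 0.75. Herc6, its ligase in mice, had -0.25 and -0.13 on its brightest probe, but its second, dimmer probe fell by 1.56 in KO and by 1.66 in WT (adjusted p = 0.0152 and 0.00653).

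**Figure D3:**
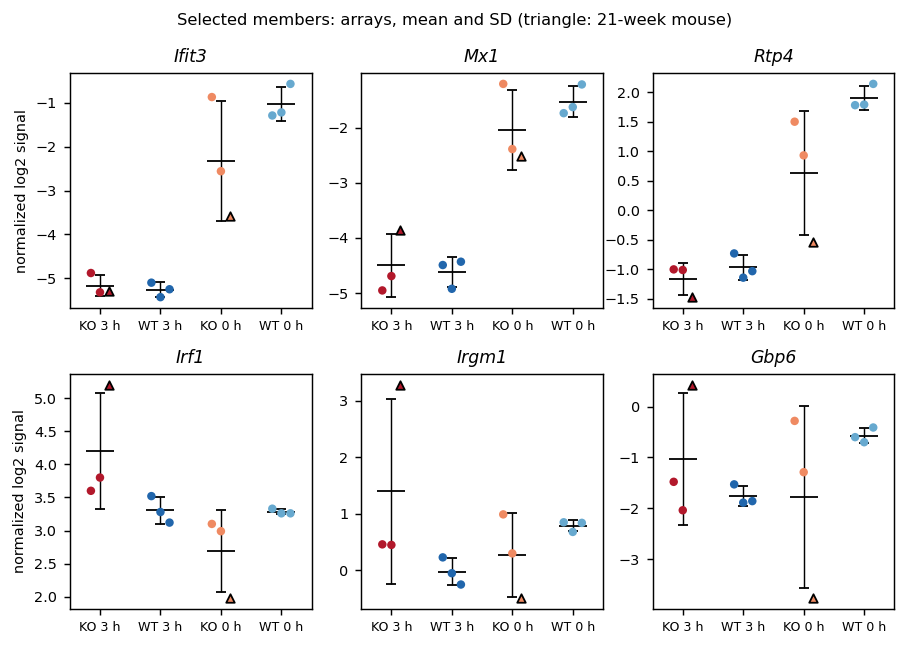
Normalized log2 signal of 6 members on each array, in KO 3 h, WT 3 h, KO 0 h and WT 0 h, with the group mean and SD (n = 3) in black and triangles for 21-week mice. Ifit3, Mx1 and Rtp4 are low on all 6 activated arrays, while for Irf1, Irgm1 and Gbp6 the 21-week arrays lie lowest at 0 h and highest at 3 h.

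Among ADP-ribosylation, antigen transport and other members, 3 of 9 fell in KO and 5 of 9 in WT, with median differences of -0.77 and -1.63. Rtp4, a receptor transporter protein, read -1.0, -1.01 and -1.47 in KO 3 h, against 1.5, 0.93 and -0.54 in KO 0 h. Its WT levels were -0.73, -1.14 and -1.03 at 3 h, against 1.78, 1.79 and 2.14 at 0 h. It was 3.45-fold lower in KO (-1.79, adjusted p = 0.019) and 7.32-fold lower in WT (-2.87, adjusted p = 0.0012), and the 21-week array was the lowest at both times. Xaf1, a binding partner of the apoptosis inhibitor XIAP, read -1.89, -2.16 and -1.90 in KO 3 h, against 0.29, -0.38 and -1.27 in KO 0 h. In WT it read -1.89, -2.15 and -2.23 at 3 h, against 0.34, 0.27 and 0.45 at 0 h. Activated arrays of both genotypes covered nearly the same range, and the differences were -1.53 (adjusted p = 0.0108) and -2.44 (adjusted p = 0.00068).

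Ifi44 was well above background on 3 of 3 arrays at 0 h and on 0 of 3 at 3 h in each genotype, so only a bound can be given at 3 h: it was at least 3.67-fold lower in KO (adjusted p = 0.0288) and at least 8.33-fold lower in WT (adjusted p = 0.00213). Such a bound sets the mean at 0 h against the lowest signal counted as above background on each 3 h array, or the probe's own signal where that was higher. The probe of Ifi44 passed the filter only through the 0 h groups, where it was high, so its fall is no independent support for the direction. Ifi44 is counted among the 13 members that fell in KO and the 22 that fell in WT. At 0 h it read -3.79, -5.58 and -5.91 in KO, against -5.52, -5.09 and -4.88 in WT.

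Dtx3l and Parp9 code for a ubiquitin ligase and its ADP-ribosylation partner. Dtx3l read -0.23, -0.43 and 0.34 in KO 3 h, against 0.77, 0.69 and -0.13 in KO 0 h. The WT arrays read -0.35, -0.40 and -0.53 at 3 h, against 1.24, 1.16 and 1.21 at 0 h. The 10-week KO arrays and the WT arrays were lower at 3 h, and the 21-week arrays had the opposite order. Dtx3l fell in WT (-1.63, adjusted p = 0.00173), with -0.55 in KO (adjusted p = 0.172). Its other, dimmer probes had smaller differences: -0.89 (adjusted p = 0.0387) and -0.43 (adjusted p = 0.177) in WT, and -0.17 and -0.05 in KO. Parp9 read -1.62, -1.82 and -0.89 in KO 3 h, against -0.11, -0.63 and -1.29 in KO 0 h. WT Treg had levels of -1.74, -1.83 and -1.98 at 3 h, against -0.27, -0.26 and -0.09 at 0 h. It fell in WT (-1.65, adjusted p = 0.00364) with -0.77 in KO (adjusted p = 0.114), and its second, dimmer probe had 0.79 in WT. Tap1, the peptide transporter of MHC class I, Ifi35, Parp14 and the nuclear body protein Sp100 did not pass the test in either genotype, with differences of -0.02 to -1.22 in KO and -0.47 to -1.46 in WT.

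Among the 5 transcription factors and feedback genes, 1 rose in KO and 1 fell in WT. Irf1, which interferon gamma induces, read 3.6, 3.80 and 5.20 in KO 3 h, against 3.1, 2.99 and 1.98 in KO 0 h. Its WT levels were 3.52, 3.28 and 3.12 at 3 h, against 3.33, 3.26 and 3.26 at 0 h. The WT arrays overlapped (0.02, adjusted p = 0.974), and the KO arrays did not: the difference was 1.51 ± 0.414 (adjusted p = 0.0331), the 21-week arrays lay outermost, and it was 0.66 (adjusted p = 0.00773) without those arrays. The call was kept in 12 of 26 alternatives (adjusted p of 0.00773 to 0.225), and the second, dimmer probe had 0.79 in KO (adjusted p = 0.0961). Irf1 is shown array by array because it was the only member called higher, a choice made after its values were seen, as were the array values of Eif2ak2 and Zbp1. Usp18, which removes Isg15 and damps type I receptor signalling, fell in WT (-2.21, adjusted p = 0.0208), with -1.45 in KO (adjusted p = 0.128). Stat2 and Irf9, parts of the ISRE-binding complex, and Irf7, which amplifies type I interferon, did not pass the test: Stat2 had 0.46 in KO and -0.21 in WT, Irf9 had 0.03 and -0.67, and Irf7 had -0.53 and -0.60.

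The interferon-inducible GTPases act on microbial vacuoles. Of 6, 0 passed the test in either genotype, with median differences of 1.03 in KO and -0.40 in WT. Irgm1 read 0.46, 0.45 and 3.28 in KO 3 h, against 0.99, 0.30 and -0.49 in KO 0 h. In WT it read 0.23, -0.05 and -0.25 at 3 h, against 0.85, 0.68 and 0.84 at 0 h. Gbp6 read -1.48, -2.04 and 0.43 in KO 3 h, against -0.28, -1.29 and -3.77 in KO 0 h. For both genes the 21-week array was the highest KO array at 3 h and the lowest at 0 h. Leaving these 2 arrays out, the median over the 6 GTPases in KO was -0.08, and 1 of them, Gbp6, fell in KO (-0.98, adjusted p = 0.04). In WT that fit called Gbp6 (-1.19, adjusted p = 0.00583) and Irgm1 (-0.82, adjusted p = 0.007) lower and Gbp3 higher. Igtp had a difference of 1.34 in KO (adjusted p = 0.0753) and 0.16 in WT, Gbp2 1.27 and -0.15, Gbp3 0.93 and 0.56, and Iigp1 0.85 and -0.64.

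**Figure D4:**
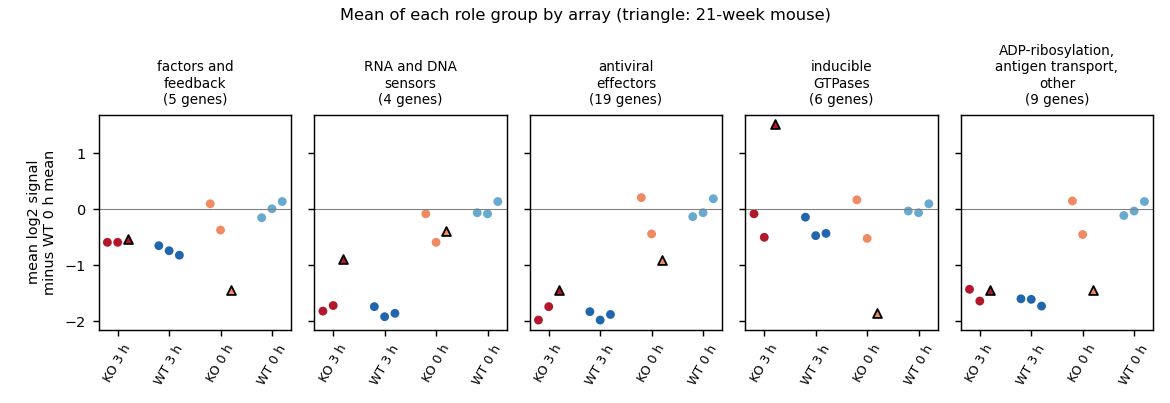
Mean log2 signal of the members of each role on each array, minus their WT 0 h mean, in KO 3 h, WT 3 h, KO 0 h and WT 0 h, with triangles for 21-week mice. On the activated arrays the effectors lie between -1.98 and -1.45, and the GTPase mean of the 21-week arrays is 1.52 at 3 h and -1.85 at 0 h.

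Comparing genotypes at 3 h, 0 of 43 members passed the test (1.44% of all genes were called; 6 members, 14%, against 10.6% of genes had an unadjusted p under 0.05). The median difference was 0.12, against 0.04 over all genes, and 26 of 43 members were above 0, but the sign of that median depended on the scaling: it was -0.09 with the percentile taken over all probes and -0.29 with no shift between arrays, where the median over all genes was -0.17 and -0.36. The 2 members with the largest differences were Ifitm3 and Oasl1. Ifitm3, which blocks virus entry at endosomes, read -4.83, -3.45 and -0.67 in KO 3 h, against -4.85, -5.07 and -5.10 in WT 3 h. Its first KO array was level with the WT arrays and the 21-week array was far above them, giving 2.03 (95% interval 0.10 to 3.96, adjusted p = 0.443). Oasl1, an inhibitor of Irf7 translation in mice, read -2.18, -1.93 and -0.25 in KO 3 h, against -3.13, -2.69 and -2.89 in WT 3 h. The groups did not overlap, as for 6 members in this direction (11.8% of all genes), and the difference was 1.45 (95% interval 0.50 to 2.40, adjusted p = 0.199). With the 21-week arrays left out 1 member, Eif2ak2, was called lower in KO (-0.92, adjusted p = 0.024; 1.99% of all genes were called, 0.593% lower), with all arrays at -0.70 (adjusted p = 0.29). Eif2ak2 read -4.02, -3.80 and -3.24 in KO 3 h, against -3.05, -3.03 and -2.89 in WT 3 h.

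Before activation, 0 of 43 members passed the test between genotypes either (2.08% of all genes were called; 8 members, 18.6%, against 15.4% of genes had an unadjusted p under 0.05). On the signed scale 38 of 43 members had a difference below 0, with a median of -0.54, against -0.03 over all genes. The mean over all members, relative to WT 0 h, was 0.15, -0.46 and -1.17 in KO 0 h, against -0.11, -0.05 and 0.15 in WT 0 h, and the -1.17 belonged to the 21-week array. In KO 0 h the 21-week array was below the 10-week mean for 38 of 43 members (median difference -1.16). Without the 21-week arrays the median KO difference was -0.16, against 0.01 over all genes.

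Ifitm3 again had the largest difference at 0 h, with -1.36, -1.51 and 0.29 in KO, against -2.96, -2.88 and -2.97 in WT. All KO arrays were above all WT arrays, which held for 1 member in this direction (16.9% of all genes) and for 8 in the other (14.7%), with a difference of 2.08 (95% interval 0.15 to 4.01, adjusted p = 0.288). On the 10 other arrays it was called higher in KO (1.51, adjusted p = 0.0396). Macrophage markers moved in the same direction: 11 of 11 were higher in KO at 0 h, also without the 21-week arrays, and 10 of 11 at 3 h. Their part in the Ifitm3 values was not tested. Ifit1 read -2.79, -4.47 and -6.85 in KO 0 h, the last not well above background, against -3.64, -3.36 and -2.86 in WT 0 h. These ranges overlapped, and the difference was -1.41 (95% interval -3.41 to 0.58, adjusted p = 0.496). Without the 21-week arrays 4 members were called lower in KO at 0 h (6.64% of all genes were called, 1.91% lower and 4.73% higher): Bst2 by -0.55 (adjusted p = 0.0222), Dtx3l by -0.48 (adjusted p = 0.0366), Oas1a by -0.68 (adjusted p = 0.0494) and Zbp1 by -0.83 (adjusted p = 0.0482). With all arrays their differences were -0.30, -0.76, -1.0 and -0.23. Erythroid markers had a median difference of 2.92 over 8 genes at 0 h, with 0 called.

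**Figure D5:**
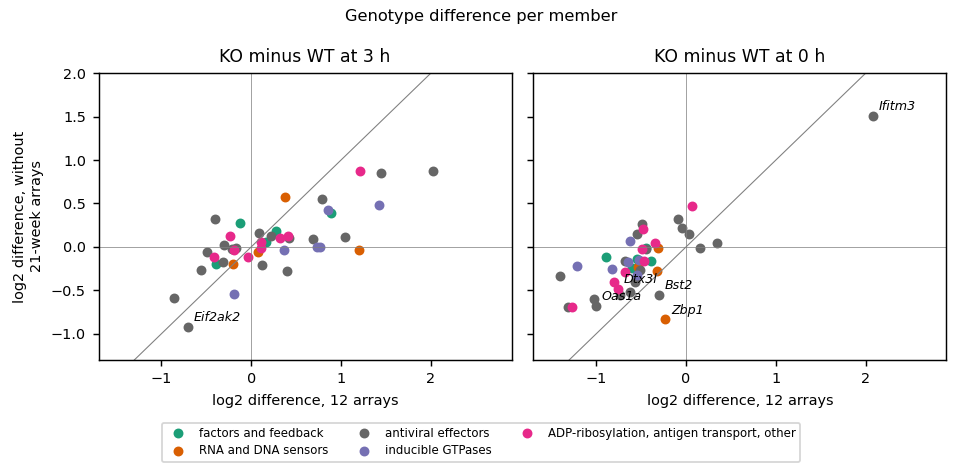
KO minus WT difference in log2 signal for each member at 3 h (left) and 0 h (right), from all 12 arrays (x axis) and without the 21-week arrays (y axis), with equal values on the grey diagonal, colours for roles and names for members called without those arrays. Most members at 0 h lie left of 0 on the x axis and nearer to 0 on the y axis, and Ifitm3 stands apart at 2.08 and 1.51.

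Whether the activation effect itself differed between genotypes was tested as the KO effect minus the WT effect. By limma, 0 of 43 members and 0% of all 18549 genes passed the adjusted test, and 4 members (9.3%) and 688 genes (3.71%) had an unadjusted p under 0.05. The median over members was 0.69, against 0.06 over all genes, with 41 of 43 above 0, and it was 0.23 without the 21-week arrays. The largest values were 1.95 for Irgm1 (95% interval -0.17 to 4.06) and 1.94 for Gbp6 (-0.65 to 4.53), the 2 GTPase genes described above, both with an adjusted p of 1. Without the 21-week arrays the value for Gbp6 was 0.22 ± 0.421 (SE). The median standard error of this difference was 0.586 with 3 arrays a group.

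Spread between replicates differed between the genotypes: the median SD of a member was 0.57 in KO 3 h and 0.15 in WT 3 h, and 0.75 in KO 0 h and 0.12 in WT 0 h. The mean over all members, relative to WT 0 h, was -1.43, -1.41 and -0.88 in KO 3 h, against -1.40, -1.54 and -1.52 in WT 3 h. The 10-week KO arrays lay within the range of the WT arrays or close to it, and the 21-week array lay above both. Relative to the 10-week KO arrays at 3 h, the 21-week array was lower for 15 of 43 members, with a median difference of 0.36.

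Upstream of these genes, 8 of 10 listed interferon ligands had a probe and 3 were tested. Ifng was well above background on 12 of 12 arrays. Ifna1 was so on 6 arrays and Ifnk on 4, both including 3 of 3 in WT 3 h and 0 of 3 in KO 3 h, and neither was called in any comparison. Both passed the filter only through WT 3 h, so these counts show no difference between genotypes. The lowest signal counted as above background also differed between arrays. Ifna1 read -6.59, -6.69 and -6.73 in KO 3 h, against -6.75, -6.63 and -6.49 in WT 3 h. Ifnk read -7.35, -7.16 and -8.31 in KO 3 h, against -7.45, -6.97 and -4.53 in WT 3 h. Ifnl3 was above background on 3 arrays, Ifna2 on 2, and Ifnb1, Ifna4 and Ifne on 0 of 12. Ifng, the ligand of the GAS route, read -1.66, -1.18 and 1.53 in KO 3 h, against -1.46, -2.05 and -1.98 in WT 3 h, the 21-week array being the highest, and was not called in any comparison. Among 5 tested receptor genes, Ifngr2 rose at 3 h in WT (1.21, adjusted p = 0.0458), with 1.13 in KO (adjusted p = 0.0826). Ifngr1 had 1.17 in KO and 1.71 in WT (adjusted p = 0.218 and 0.0593). Ifnar1 had 0.71 in KO and 0.48 in WT, and Ifnar2 0.01 and -0.39. Ifngr1 read 3.46, 3.44 and 0.61 in KO 3 h, against 1.39, 1.34 and 1.29 in KO 0 h, the 21-week array being far lower at 3 h. Without the 21-week arrays 1 receptor gene fell and 3 of 5 rose in KO (20.2% of all genes rose). Ifngr1 (2.09, adjusted p = 1.54e-05) and Ifnar1 (0.76, adjusted p = 0.0141) were among those that rose. Jak2, a kinase of the interferon gamma receptor, rose in both genotypes (1.41 in KO and 1.87 in WT, adjusted p = 0.0232 and 0.00392), as did Stat3 (1.65 and 1.99, adjusted p = 0.00259 and 0.000501).

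Among other interferon regulatory factors, Irf4, needed for effector Treg, rose by 1.87 in WT, while Irf2 fell by 0.66 and Irf3 by 0.50 there. None of these 3 was called in KO with all arrays, and the difference between the effects in the genotypes was not called for any of them. In KO Irf4 read 2.13, 1.24 and 2.06 at 3 h, against -0.26, -0.63 and 1.98 at 0 h, the 21-week array being highest at 0 h. Irf4 is also 1 of the 7 plasma cell markers. Without the 21-week arrays 3 of the 7 factors of this list rose and 3 fell in KO (46.2% of all genes were called). Of 10 tested upstream adaptors and kinases, 2 fell in KO and 3 in WT and 0 rose, near the share of all genes called (17.2% and 29.9%). Mavs, the adaptor of the RNA sensors, had -0.63 in KO and -0.57 in WT (adjusted p = 0.0339 and 0.0324). Sting1, the adaptor of DNA sensing, had -1.06 and -1.38 (adjusted p = 0.0412 and 0.00841), and the RNA receptor gene Tlr7 fell by 1.98 in WT (adjusted p = 0.00613). Among 8 negative regulators, the phosphatase gene Ptpn6 fell in both genotypes (-1.39 in KO and -2.09 in WT, adjusted p = 0.00663 and 0.000512) and Pias1 rose in WT (0.57, adjusted p = 0.0234).

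Antigen processing and MHC class I genes, another group that interferon induces, fell in 4 of 10 cases in KO and 9 of 10 in WT, with medians of -0.61 and -1.12. Over all genes, 9.85% fell in KO and 16.6% in WT, with medians of -0.04 and -0.14. Without the 21-week arrays 8 of the 10 fell and 1 rose in KO, and 9 fell in WT (26% and 31.6% of all genes fell). The immunoproteasome gene Psmb8 fell by 0.96 in KO and 1.48 in WT (adjusted p = 0.00924 and 0.00068), and Psmb10 by 0.86 and 1.29 (adjusted p = 0.00611 and 0.000477). The peptide transporter gene Tap2 fell by 0.72 and 1.33 (adjusted p = 0.0361 and 0.00139). Between genotypes, 0 of 48 tested genes of these 7 lists were called at 3 h and 0 of 48 at 0 h with all arrays. Without the 21-week arrays Tlr7 (0.88) and Ptpn6 (0.58) were called higher in KO at 3 h, and Psmb8 (-0.48) lower in KO at 0 h.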

How the data were processed

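RNA of the 12 samples was labelled with Cy3 and hybridised to 12 one-colour Agilent arrays. The deposited scanner intensities were background-subtracted and detrended within each array by Agilent Feature Extraction, per the file headers, on an mm9 array design (version 11 and Partek are named in the submitters' processing notes). The authors' deposited log2 table of the same arrays, whose scaling no source used here gives, served as an alternative. From the intensities, spots of a probe were averaged, log2 was taken, and each array's 75th percentile over probes above background on all 12 arrays was subtracted, since a mean of 46.4% of probes was above background. Probes below background in every group were dropped, and the brightest probe stood for a gene. One limma 3.58.1 fit (R 4.3.3) of 4 group means, with 8 residual degrees of freedom, gave every comparison. P-values were adjusted over 18549 genes by the Benjamini-Hochberg method with a threshold of 0.05. The fit was tested on simulated data. The number of arrays limits the precision. Members, lists and tests were chosen with earlier results of these data known. Array values are given for the 12 called members with the largest moderated statistic and, where fewer than 2 were called, for the 2 with the largest difference. Pathway genes named are up to 4 called ones per list and comparison, plus the receptors, Ifng and Ifnb1. Some genes of these lists are not reported here.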

Additional observations from a re-analysis of the deposited data

How the results depend on the processing

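No paired analysis was possible because replicate numbers follow the order of the samples and the labels do not say which samples share a mouse. The one tie they give, the age of the 21-week samples, was fitted as a covariate. Of the 36 calls made on members, 33 were kept with quantile normalization, 35 with the percentile over all probes, 27 with no shift between arrays, 34 with normexp, 33 with the deposited log2 table, 30 with no filter on dim probes, 34 averaging the probes of a gene, and 36 without the 21-week arrays, with age as a covariate or with array weights. With only probes above background on all 12 arrays, where Ifi44 was not tested, 34 of 34 calls were kept. Under the mean of probes Samhd1 in WT turned to 0.33, since its probes disagree. For KO against WT at 0 h, the count of called members (0 as reported) was 5 without both 21-week arrays, 1 with age as a covariate and 9 with array weights, and 0 to 1 leaving out 1 array. For KO against WT at 3 h it (0 as reported) was 1 with no filter on dim probes, 1 without the 21-week arrays and 1 with array weights, and 0 leaving out 1 array. For 3 h against 0 h in KO it (14 as reported) was 34 without the 21-week arrays, 24 with age as a covariate, 26 with array weights and 0 from the KO arrays alone, and 8 to 23 leaving out 1 array. For 3 h against 0 h in WT it (22 as reported) was 35 without the 21-week arrays and 38 with array weights, and 18 to 28 leaving out 1 array. The difference of the activation effects gave 0 called members in all 24 alternatives. Over all genes, KO against WT at 3 h called 268 as reported, 5081 with no filter on dim probes, 162 with probes above background on all 12 arrays, 118 with no shift and 445 with array weights. KO against WT at 0 h called 385 as reported, 222 with that stricter filter, 758 with age as a covariate and 2089 with array weights, and its 337 higher and 48 lower became 261 and 103 with the percentile over all probes. In KO, 3 h against 0 h called 3192 as reported, 1923 with no filter, 7147 with age as a covariate and 7812 with array weights, and in WT 5544 as reported, 2823 with no shift, 9329 with age as a covariate and 12231 with array weights. Leaving out 1 array, the all-gene counts ran from 83 to 1098 for KO against WT at 0 h, 130 to 562 at 3 h, 1803 to 6896 for 3 h against 0 h in KO and 3632 to 7647 in WT. Apart from the arrays left out and the terms added, the cause of these shifts was not tested. Ifi44 at 3 h and Ifit1 on the 21-week arrays were not above background, which limits their values.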
